A study of Caenorhabditis elegans with 2 samples.

Results

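The strong FKH-2 peaks of chromosome X in Caenorhabditis elegans were the 437 peaks on X among the 2000 highest-scoring peaks of the pooled list, which held 30000 peaks in all. They were chosen on the pooled score alone, the peak score that the authors deposited for each region, so scores and ranks are descriptive and carry no test. The comparison sets were the other 1563 of the same 2000 peaks, all on autosomes, and the 5289 weaker X peaks of the pooled list. X held 5726 pooled peaks in all.

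The study mapped the forkhead factor FKH-2 by chromatin immunoprecipitation and sequencing (ChIP-seq) in whole L3 larvae, with 2 biological replicates in 1 group. Both samples were mixed-sex OP185 animals, a strain with the unc-119(ed3) III allele and the transgene wgIs185 for eGFP-fkh-2. No label gives a change in the endogenous fkh-2 gene, which lies on X, and the antibody label names fkh-2 without saying whether the antibody binds the tag or the factor. Whole animals mix all cell types, and no control library and no other condition was analysed here.

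FKH-2 belongs to the forkhead family, whose winged-helix domain binds short AT-rich sites, and in this worm it is known for a role in ciliated sensory neurons. Chromosome X is also the target of dosage compensation, in which a condensin-containing complex loads at recruitment sites on both X chromosomes of hermaphrodites and lowers their transcription. Many of those recruitment sites carry a motif with the core GCGCAGGG, and X-linked signal genes such as fox-1 and sex-1 set the state of the switch gene xol-1.

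The sequences below are shown because they are the strongest members and because their letters carry the motif results. Each is a peak centre with 50 bases on either side, read 5′ to 3′ on the plus strand from the RefSeq genome of build WBcel235 (ce11). Capitals mark the purine repeat GAGAGA or its complement TCTCTC, or the dosage compensation core or its complement. The forkhead word GTAAACA or its complement TGTTTAC also occurs in the windows of ranks 52 and 56 and is left in lower case.

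Member of pooled rank 2 (chrX:9465851-9465951): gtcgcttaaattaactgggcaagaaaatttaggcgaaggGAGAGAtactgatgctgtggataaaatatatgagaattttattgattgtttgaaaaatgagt
Member of pooled rank 3 (chrX:11094146-11094246): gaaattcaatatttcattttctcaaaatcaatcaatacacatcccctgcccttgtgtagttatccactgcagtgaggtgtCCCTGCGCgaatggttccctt
Member of pooled rank 6 (chrX:6296573-6296673): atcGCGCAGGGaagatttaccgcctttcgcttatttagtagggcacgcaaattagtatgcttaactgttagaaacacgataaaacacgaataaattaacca
Member of pooled rank 13 (chrX:806639-806739): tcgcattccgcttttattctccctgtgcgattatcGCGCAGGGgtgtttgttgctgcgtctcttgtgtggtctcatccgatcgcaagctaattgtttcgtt
Member of pooled rank 52 (chrX:7823176-7823276): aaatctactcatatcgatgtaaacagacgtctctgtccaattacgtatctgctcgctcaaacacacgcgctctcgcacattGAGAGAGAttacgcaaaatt
Member of pooled rank 56 (chrX:5812100-5812200): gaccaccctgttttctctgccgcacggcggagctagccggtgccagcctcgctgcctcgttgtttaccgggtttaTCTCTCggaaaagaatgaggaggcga

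The dosage compensation core occurred at 21 places inside 17 members. The 11 places inside the 7 highest-scoring of those members follow, each 32 bases long and written on the strand that carries the core, so that the flanks can be compared.

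Rank 3, first site (chrX:11094113-11094144, minus strand): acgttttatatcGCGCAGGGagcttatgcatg
Rank 3, other site (chrX:11094214-11094245, minus strand): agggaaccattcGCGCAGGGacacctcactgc
Rank 6, first site (chrX:6296536-6296567, plus strand): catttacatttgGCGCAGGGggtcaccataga
Rank 6, other site (chrX:6296564-6296595, plus strand): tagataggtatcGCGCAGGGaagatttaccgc
Rank 11, first site (chrX:2997111-2997142, minus strand): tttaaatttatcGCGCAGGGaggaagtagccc
Rank 11, other site (chrX:2997286-2997317, minus strand): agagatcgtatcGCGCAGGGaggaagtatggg
Rank 13, first site (chrX:806662-806693, plus strand): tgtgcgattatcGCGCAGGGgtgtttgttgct
Rank 13, other site (chrX:806738-806769, plus strand): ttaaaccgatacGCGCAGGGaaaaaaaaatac
Rank 22 (chrX:4209254-4209285, minus strand): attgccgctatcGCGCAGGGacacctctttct
Rank 31 (chrX:14525888-14525919, minus strand): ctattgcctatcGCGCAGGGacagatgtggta
Rank 42 (chrX:16682160-16682191, minus strand): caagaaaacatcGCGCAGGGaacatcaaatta

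Across all 21 places the base just before the core was C at 14 and the one before that was T at 15, while the base just after it was A at 16.

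Members were spread along the whole of X. Their centres ran from position 325723 to near the right end, the median gap between neighbouring members was 25892 bp, and the 1 Mb bins held from 16 to 30 members each. Of the members, 140, 151 and 146 lay in the left, middle and right of 3 equal parts of the chromosome, beside 1700, 1788 and 1801 of the weaker X peaks. None of these 3 shares passed a test between strong and weaker peaks (two-sided Fisher's exact test, Benjamini-Hochberg adjusted p = 1 in each). The shares differed by at most 0.748 percentage points. X carried 24.7 strong peaks per Mb and the autosomes 18.9, from 16.8 on V to 22.4 on III. These are descriptive counts because the rule drew members by score. Over all pooled peaks the density was 323 per Mb on X, 319 on III and 294 on the autosomes together. The members made up 21.85% of the 2000 peaks (Wilson 95% interval 20.1 to 23.7). The X share was 27.1% in ranks 1 to 203, 19.4% in ranks 1001 to 2000 and 18.6% in ranks 20001 to 30000.

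**Figure D1:**
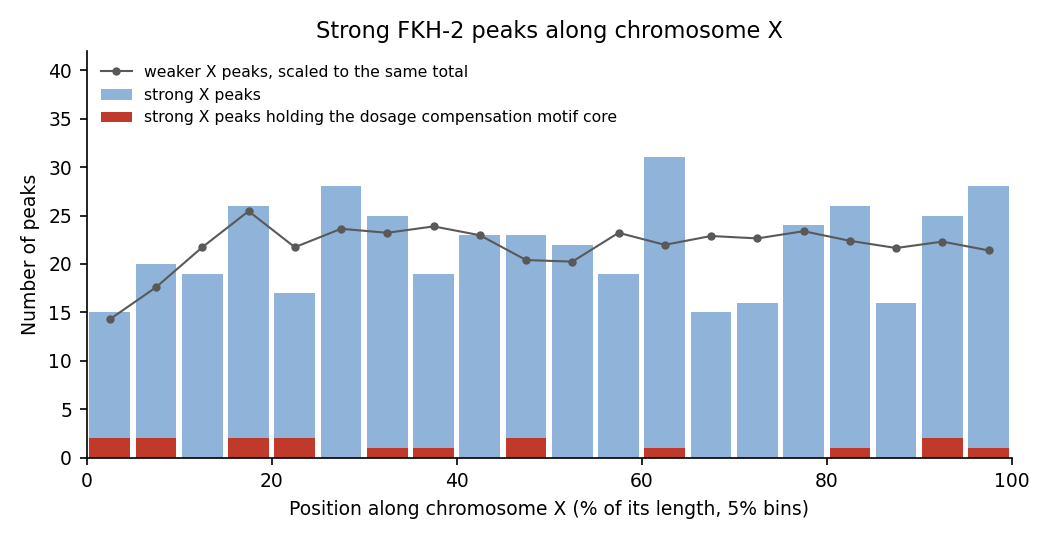
Number of strong X peaks (blue bars), those holding the dosage compensation motif core (red bars, a subset) and weaker X peaks scaled to the same total (grey line) in 20 bins of 5% of the length of X. Bins held 15 to 31 strong peaks, and the core-holding members were scattered over 11 of the 20 bins.

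Most members lay between protein-coding genes. Of all members, 263 (60.2%, 55.5 to 64.7) were intergenic, 106 (24.3%) intronic, 53 (12.1%) in coding sequence, 11 in a 5′ UTR and 4 in a 3′ UTR. The intergenic share was 50.7% among autosomal strong peaks (Fisher's exact test, adjusted over 5 features, p = 0.00258) and 41.7% among weaker X peaks (adjusted p = 4.58e-13). Intergenic sequence itself made up 44.5% of X and 35.8% of the autosomes. P-values over peaks describe these lists, because peaks share their libraries and are not independent animals, and Wilson intervals cover counting error over peaks only.

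The difference in intergenic share between X and autosomal strong peaks was 9.45 points in the pooled list and smaller in each single-replicate list. Among the 2000 strongest peaks of the replicate 2 list alone, 50.9% of X peaks and 45.1% of autosomal peaks were intergenic (Fisher's exact test, adjusted p = 0.0840). Among those of the replicate 1 list alone the shares were 55.3% and 47.9% (Fisher's exact test, adjusted p = 0.0384). Against weaker X peaks the intergenic difference was 18.5 points in the pooled list and 8.65 in the replicate 2 list alone. Coding sequence held 12.1% of the members against 24.3% of weaker X peaks (Fisher's exact test, adjusted p = 2.54e-09) and 15.4% of autosomal strong peaks (adjusted p = 0.143), and the first of these differences went from -12.2 to -6.98 points in the replicate 2 list alone. For 3′ UTRs the count of 4 members compared with 175 weaker X peaks (3.31%, Fisher's exact test, adjusted p = 0.00613), a difference of -2.39 points. That call was lost in both single-replicate lists, with -1.75 points in the replicate 2 list (adjusted p = 0.117, Fisher's exact test) and -0.672 in the replicate 1 list (adjusted p = 0.551). It was also lost against weaker X peaks down to rank 8000 (Fisher's exact test, adjusted p = 0.0504) and with the IDR set (adjusted p = 0.524).

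Promoters took a smaller share of the members than of autosomal strong peaks. A protein-coding transcription start lay within 500 bp of the centre in 29.5% of members (25.4 to 33.96), in 36.5% of autosomal strong peaks (Fisher's exact test p = 0.00761) and in 21.7% of weaker X peaks (p = 0.000256). The excess over weaker X peaks was lost, and its sign turned, when the peaks of replicate 2 were used alone, with 21.5% against 21.96% (Fisher's exact test p = 0.903). For 142 members (32.5%) no start lay within 2000 bp, against 25.6% of autosomal strong peaks (Fisher's exact test p = 0.00506) and 38.2% of weaker X peaks (p = 0.0182). The first of these differences was 3.55 percentage points in the replicate 1 list alone (Fisher's exact test p = 0.162) and the other was -2.52 points in the replicate 2 list alone (p = 0.322).

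No difference between X and the autosomes in the contrast of strong with weaker peaks passed a test. The odds of an intergenic centre in strong against weaker peaks were 2.12 times higher on X and 2.07 times higher on autosomes, a ratio of 1.02 (95% interval 0.818 to 1.28, logistic model with an interaction term). For promoters the ratio was 0.968 (0.761 to 1.23). None of 7 such interactions passed the threshold, the smallest adjusted p being 0.471, for neighbouring unclassified noncoding RNA genes. Gene density differed too, with 154 protein-coding genes per Mb on X and 188 to 239 per Mb on the single autosomes, and its part in the promoter and intergenic differences between chromosomes was not tested.

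**Figure D2:**
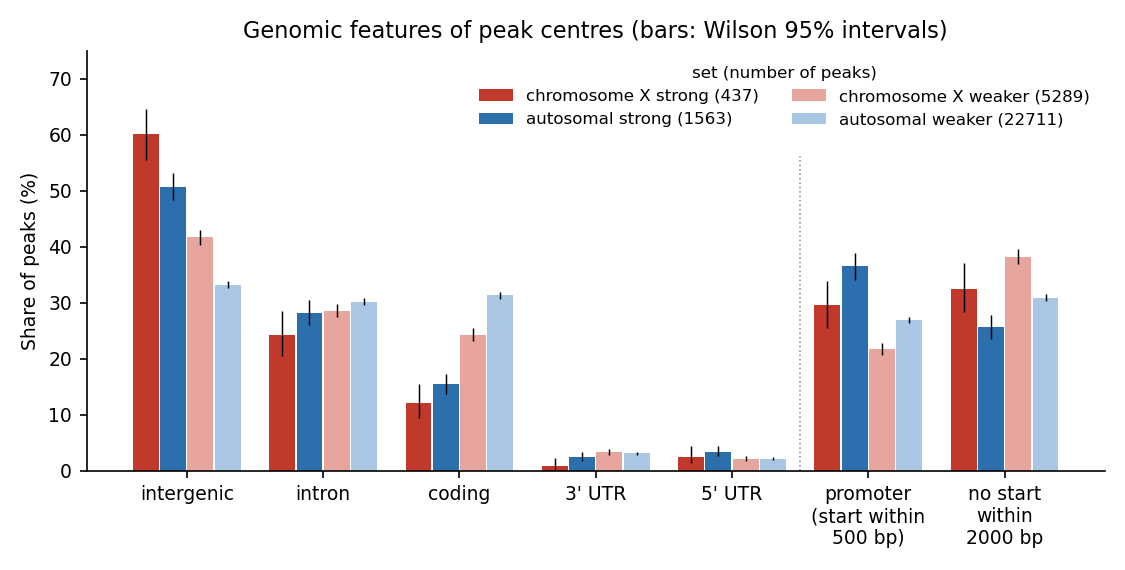
Share of peak centres (%) in 5 exclusive features, left of the dotted line, and in 2 classes of distance to a start, right of it, for strong and weaker peaks of X and of the autosomes. Bars are shares and black lines are Wilson 95% intervals, and strong X peaks have the highest intergenic share, 60.2%.

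Of the 8 strongest members, 7 lay over 2000 bp from any protein-coding start. The top member, chrX:9465756-9466045, had a pooled score of 68.01 and scores of 42.9 and 24.5 in replicates 1 and 2. It was intergenic, between ZK899.6 and gap-2, a gene for a Ras GTPase-activating protein, and 2556 bp from the nearest start, that of ZK899.6. It ranked 3 in replicate 1 and 5 in replicate 2, so both libraries placed it near the top. The next, chrX:11094051-11094340, had a pooled score of 67.2 and the highest score of the replicate 1 list (53.8), with 14.7 in replicate 2. It was intergenic, 3990 bp from the start of W02H3.3.

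An intron of mom-1, which encodes a Porcupine-like protein needed for Wnt secretion, held the member chrX:6296478-6296767. Its pooled score was 52.3, with 25.1 in replicate 1 and 21.2 in replicate 2. Intergenic chrX:13700781-13701070 followed with 49.4, and with 34.3 and 15.9 in the replicates, 5981 bp from K02D3.1. An intron of Y41G9A.17 held chrX:2997030-2997319 at 44.4, with 37.7 and 10.8. These 3 regions were again in the upper ranks of both libraries, at 177 or better.

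Agreement was weaker for chrX:806544-806833, which scored 43.9 in the pooled list and 33.8 in replicate 1 but 6.28 in replicate 2, where it ranked 2060. It lay 302 bp from F25E2.2 and 3911 bp from the start of gtr-1. The member near F55G7.5 (43.9 pooled, 32.03 and 14.8 in the replicates) lay 1376 bp downstream of its start. The one near pigx-1 (42.1, with 33.7 and 8.50) was 3726 bp from that start. Replicate 2 gave each of these 8 members a lower score than replicate 1, and the scores of the lists have no stated common scale. The median score of listed members was also lower in replicate 2, at 5.94 against 9.24 in replicate 1.

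Among the other members of the 15 strongest, those near F20B6.9 (41.8), nspc-17 (40.2), F28C10.3 (37.2) and rbg-1, a Rab3 GTPase-activating subunit gene (37.01), lay 1775, 671, 188 and 83 bp upstream of the start. The remaining 3 were those nearest to lgc-21 (36.3), F22H10.2 (35.6) and serp-1.1 (35.3, 305 bp upstream). Unlike the first 8, most of these were close to a start. At the other end, the 3 members just inside the rank limit scored 11.608 in an intron of mob-2, 11.607 in an intron of mdt-1.2 and 11.596 upstream of lst-2. The 3 X peaks just outside it scored 11.587, 11.582 and 11.572, near T24D8.6, cah-4 and dlg-1.

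The dosage compensation core was far more frequent in members than in autosomal strong peaks. Anywhere in the peak it was present in 17 of the 437 members (3.89%) and in 4 of 1563 autosomal strong peaks (0.256%), with an odds ratio of 15.8 (Fisher's exact test, adjusted over 3 comparisons chosen after the data were seen, p = 1.13e-08). Among weaker X peaks it was present in 10 of 5289 (0.189%), with an odds ratio of 21.4 (Fisher's exact test, adjusted p = 9.31e-13). Counted over the genome, X held 81 occurrences of the core and the autosomes 233, or 4.57 and 2.82 per Mb. Strong peaks covered 21 of the 81 on X (25.9%, 17.6 to 36.4) and 4 of the 233 on autosomes (1.72%, 0.670 to 4.33, odds ratio 20.04, Fisher's exact test, adjusted p = 4.01e-10). Because 4 of the 17 members held 2 or more occurrences, these were not independent units in that test and interval. Pooled peaks of any rank covered 31 of the 81 on X and 31 of the 233 on autosomes.

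In the narrower window of the centre and 50 bases on either side, 10 members had the core, against 1 in the windows 500 bp to the lower side (exact McNemar test, adjusted over 11 motifs, p = 0.0143). No autosomal strong peak had it there (Fisher's exact test, adjusted p = 2.52e-06), where a count of 0 of 1563 allows up to 0.192% at the limit of 3 counts. It was present in 0.0756% of weaker X peaks, 0.0800% of all pooled peaks and 0.0388% of 175435 consecutive windows of that length on X. The core lay 2 to 126 bp from the centre, with a median of 49 bp. With replicate 2 alone the comparison with the flank fell to 5 against 2 of 432 (adjusted p = 0.589), and that with autosomal peaks to 5 of 432 against 2 of 1568 (Fisher's exact test, adjusted p = 0.0459). There the core anywhere in the peak was in 9 of 432 strong X peaks, 4 of 1568 autosomal ones (Fisher's exact test p = 0.000294) and 8 of 4326 weaker X peaks (p = 4.85e-06).

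Most members with the core stood high in the list, and the others were spread over lower ranks. Members with the core were 7 of the 15 strongest members, and 10 of the 55 members in ranks 1 to 203 (18.2%). Their share was 1.45% in ranks 204 to 500 and 0.840% in ranks 501 to 1000. It was 2.58% (5 of 194) in ranks 1001 to 2000, so it did not fall steadily with rank. On the autosomes the counts were 1 of 148 in ranks 1 to 203 and 1 of 806 in ranks 1001 to 2000. These shares by rank have no test, since the rank is what the rule used. Of the 17, 12 were intergenic, 9 had no start within 2000 bp and 14 were in both replicate lists. Over all 437 members the shares were 60.2%, 32.5% and 63.4%, and the differences were not tested.

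Several of the 17 lay near genes with known roles. The member upstream of ins-39, an insulin-like peptide gene, was 611 bp from its start and scored 28.2 in the pooled list, 16.4 in replicate 1 and 18.3 in replicate 2. The one between C34D10.1 and xol-1, chrX:8036413-8036702, was 4755 bp upstream of xol-1, the sex determination switch, and scored 24.2, with 11.9 and 18.3 in the replicates. Coding sequence of pks-1, a polyketide synthase gene, held one of 24.1, with 16.9 and 4.63. Replicate 2 exceeded replicate 1 at ins-39 and near xol-1 but not at pks-1. The lowest-scoring of the named ones lay in an intron of egl-17, a fibroblast growth factor gene, at 12.3, and was absent from the replicate 2 list.

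A further member lay beside that xol-1 upstream region, at chrX:8035974-8036263, with a pooled score of 15.4. It had no dosage compensation core but had a forkhead core, and was listed in replicate 1 (14.6) and not in replicate 2. Of the 17 members with the dosage compensation core, 3 also had a forkhead core, beside 96 of all 437 members.

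The forkhead core, ATAAACA or GTAAACA on either strand, was less clearly marked. It occurred at the centre of 48 members (10.98%), against 28 (6.41%) in the lower flank (exact McNemar test p = 0.0286, adjusted p = 0.0787) and 7.36% of autosomal strong peaks (Fisher's exact test, adjusted p = 0.0959). With the upper flank in its place the comparison gave 48 against 26 (exact McNemar test, adjusted p = 0.0284), and with 100 bases on either side of the centre 77 against 48 (adjusted p = 0.0143). In the peaks of replicate 2 alone it gave 26 against 27 (exact McNemar test, adjusted p = 1). The core was in 5.07% of weaker X peaks, 4.15% of all pooled peaks and 4.58% of windows of that length on X, and 96 members had it anywhere in the peak. The broader forkhead words (ATAAATA and GTAAATA, with ACAAACA or GCAAACA, and ACAAATA or GCAAATA) were at 15.6% of centres and 13.96% of lower flanks (exact McNemar test, adjusted p = 0.687).

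The purine repeat GAGAGA was the commonest enriched word. It was at the centre of 71 members (16.2%), against 18 (4.12%) in the lower flank (exact McNemar test, adjusted p = 3.52e-08), 7.17% of weaker X peaks, 8.25% of all pooled peaks and 4.91% of windows of that length on X. Autosomal strong peaks had it at 20.1% of centres (Fisher's exact test, adjusted p = 0.164 for the difference). The strongest members with it were the top member, the one 428 bp upstream of eef-1A.2, a translation elongation factor gene (33.5), and one 6228 bp from F13D11.3 (32.7), all printed above. In the replicate 2 list alone the difference from the flank fell from 12.1 to 7.18 points (exact McNemar test, adjusted p = 0.00333).

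The homeodomain word TAATTA was less frequent at centres, with 7 members against 24 in the lower flank (exact McNemar test, adjusted p = 0.0127), and its share was 5.23% over windows of X. The call was lost in the replicate 2 list alone, with 17 against 26 (exact McNemar test, adjusted p = 0.439), with the 4000 strongest peaks (adjusted p = 0.0621), with the IDR set (adjusted p = 0.688) and with neighbouring peaks left out (adjusted p = 0.0537). Base composition moved with these counts. Centres of members were 42.7% G and C and their lower flanks 34.5%, against 41.4% and 35.9% for autosomal strong peaks, and the part of base composition in the motif shares was not tested. The other 6 motif groups passed in neither comparison. The GATA words (AGATAA or AGATAG, and likewise TGATAA or TGATAG) were at 19.5% of centres and 21.4% of windows on X. The AP-1 word TGANTCA was at 2.97% and 3.32%, and the words GGGCGG and GGGTGG at 3.89% and 3.00%. The word GTTNCC, a part of the X-box and not the whole site, was at 15.1% and 12.4%. The B box core GTTCGA was at 5.49% and 3.44%, and the E-box CANNTG at 40.3% and 33.6%.

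**Figure D3:**
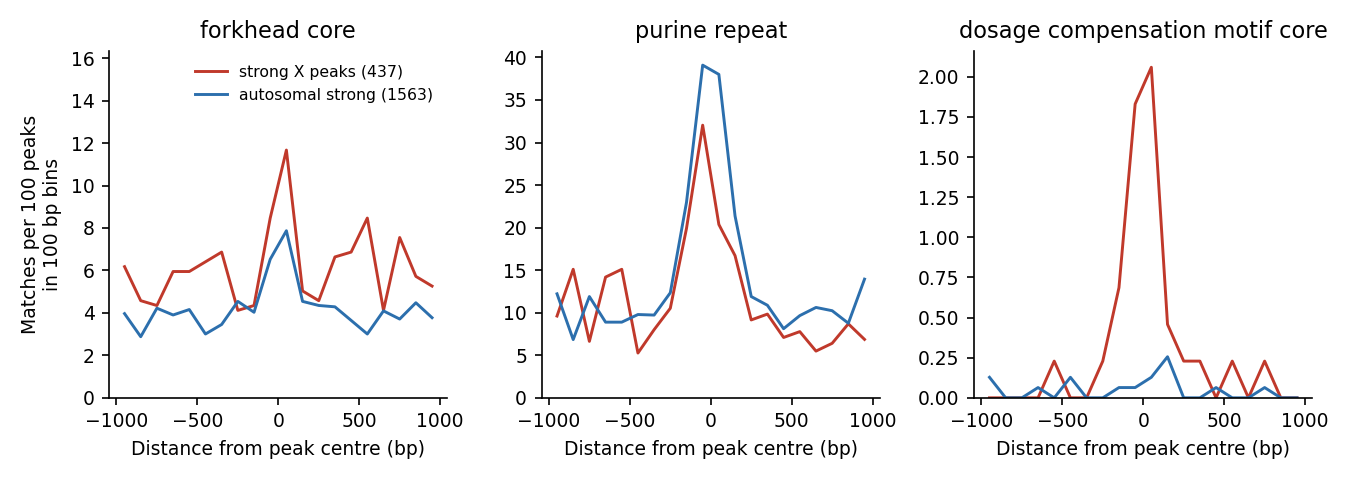
Motif matches per 100 peaks in 100 bp bins, against distance from the peak centre in bp, for strong X peaks (red) and autosomal strong peaks (blue). Each of the 3 panels has its own vertical scale, and the dosage compensation motif core rises at the centre to 2.06 matches per 100 X peaks and stays at or under 0.256 for autosomal peaks.

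A tRNA gene lay close to 26 members (5.95%, 4.09 to 8.57). Transfer RNA genes are transcribed by RNA polymerase III from promoter elements inside the gene. Within 200 bp of the centre, 1.22% of autosomal strong peaks and 1.46% of weaker X peaks had one (Fisher's exact test, adjusted over 8 classes, p = 1.02e-06 and 2.31e-07). In the replicate 2 list alone 3.24% of strong X peaks had one, and the differences fell from 4.73 to 2.54 points against autosomal and from 4.49 to 2.13 points against weaker X peaks, both still past the threshold. Against weaker X peaks down to rank 8000 only, of which 3.15% had one, the adjusted p was 0.0541. Counted per gene instead, 29 of 276 X tRNA genes (10.5%) and 23 of 336 autosomal ones (6.85%) had a strong peak (Fisher's exact test, adjusted p = 0.445), X holding close to as many tRNA genes as all autosomes together.

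The tRNA members were spread over 16 amino acids, no more than 3 to any one. In 8 of them the centre was inside the tRNA gene, and 25 were in the replicate 1 list and 17 in the replicate 2 list. The strongest lay on the lysine tRNA gene C33G3.t2, with a pooled score of 36.3, 22.6 in replicate 1 and 7.38 in replicate 2. The next was 95 bp from the proline tRNA gene F46G11.t1 (24.5, with 22.3 in replicate 1 and no listing in replicate 2). In 7 of the 26 the word GTTCGA, the core of the B box inside tRNA genes, was at the centre.

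Other noncoding genes near members were mostly of unclassified type. Such genes lay within 200 bp of 72 members (16.5%), of 10.5% of autosomal strong peaks (Fisher's exact test, adjusted p = 0.00407) and of 9.59% of weaker X peaks (adjusted p = 6.29e-05), and 19 of the 26 tRNA members were among them. Per gene, 3.45% of X and 4.005% of autosomal unclassified genes had a strong peak (Fisher's exact test, adjusted p = 0.511). The 2 strongest such members lay beside C33G3.12 and R03G5.8. A snoRNA gene, C53B7.8, was near 1 member (21.2), against 30 autosomal strong peaks (Fisher's exact test, adjusted p = 0.0149), a difference of -1.69 points. The call was lost in the replicate 2 list (-0.470 points, adjusted p = 0.592, Fisher's exact test) and the replicate 1 list (-0.768, adjusted p = 0.381). Per gene, 1 of 33 X and 30 of 313 autosomal snoRNA genes had a strong peak (Fisher's exact test, adjusted p = 0.539).

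No member lay near a pseudogene or an snRNA gene, which allows up to 0.686% by the 3-count limit, whereas 22 autosomal strong peaks were near a pseudogene (Fisher's exact test, adjusted p = 0.0149). In the replicate 2 list alone, 7 of 432 strong X peaks and 47 of 1568 autosomal ones were near one (Fisher's exact test, adjusted p = 0.266), and that call was lost. Per gene, 0 of 178 X and 22 of 1950 autosomal pseudogenes had a strong peak (Fisher's exact test, adjusted p = 0.511). An snRNA gene was near 12 autosomal strong peaks (Fisher's exact test, adjusted p = 0.129) and near 0 of 5289 weaker X peaks. X held only 3 snRNA genes and the autosomes 126, so the absence of such members says little. MicroRNA genes near members were cel-mir-793 (13.2), cel-mir-239b (11.7) and cel-mir-8196b (11.6). The 2 strongest members near long intergenic RNA genes lay at linc-78 (16.9) and linc-48 (16.04), and the piRNA genes were 21ur-14279 (13.3) and 21ur-15342 (12.6). These 3 classes passed no test.

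The members were assigned to 270 protein-coding genes, 9.89% of the 2731 on X, each by the nearest start within 2000 bp. That percentage is the background for the gene groups below, which are described only by counts of genes with an assigned member. Members lay inside 154 genes, and 20 genes had 2 or more assigned members.

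The gene with the most members was lin-14, the heterochronic regulator of early larval fates and the target of the microRNA lin-4. It was the nearest gene of 8 members, 6 of them inside it, over 17750 bp, in a gene and flanks of 2000 bp that held 20 pooled peaks in all. The strongest, chrX:11473419-11473708, lay in an intron at 24.7 in the pooled list and 21.5 in replicate 1, was absent from the replicate 2 list and had a forkhead core. That at chrX:11467340-11467629 scored 22.9, with 13.4 and 7.61 in the replicates. Upstream of the first start were members of 19.96 (12.9 and 5.18) and 12.1 (4.81 and 5.86).

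The remaining 4 lin-14 members scored 19.4, 17.8, 14.2 and 13.3. The first of these was higher in replicate 2 (12.05) than in replicate 1 (4.93), and the others were higher in replicate 1. The member of 14.2 lay in the 5′ UTR, 46 bp downstream of the other of the 2 annotated starts. All 8 were in the replicate 1 list and 7 in the replicate 2 list, and 3 had a forkhead core.

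**Figure D4:**
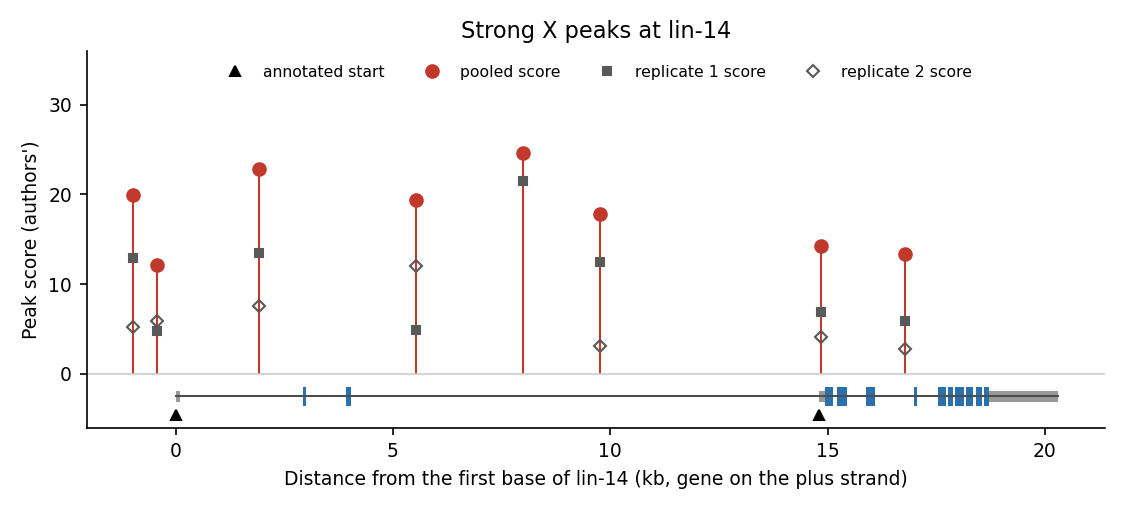
Scores of the 8 strong X peaks at lin-14 (pooled, red circles; replicate 1, grey squares; replicate 2, open diamonds) against distance in kb from the first base of the gene, with coding sequence in blue, UTRs in grey and starts as triangles. Pooled scores run from 12.1 to 24.7, and 1 member has no replicate 2 value.

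The densest 100 kb windows of X also included lin-14. That window, starting at 11400083, held 10 members, whose nearest starts were those of lin-14, F48C5.2 and slo-2, which encodes a potassium channel. The window starting at 7213340 held 9, nearest to F46H5.3, F46H5.2, spp-22, lact-1, unc-10 and sur-5, the last a gene that modulates Ras signalling. The window starting at 14947418 held 8, nearest to mrp-5, tbc-1, F20D1.3, rbg-1, ergi-2, seb-3 and C18B12.4. Of these genes, F48C5.2, unc-10, ergi-2 and seb-3 had no member within 2000 bp of a start and so none assigned. Counted by assigned members, those within 2000 bp of a start, lin-14 had 5 of its 8. The next were bet-2 (3, strongest 18.9), a bromodomain gene, and mdl-1 (3, strongest 12.9), a Mad-like bHLH gene. Genes with 2 included F20B6.9, spc-1 (alpha-spectrin), sma-9 (a Schnurri homologue of TGF-beta signalling), nhr-48 and aak-2 (a catalytic subunit of AMP-activated kinase).

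Other heterochronic genes with an assigned member, making 3 of the 7 on X with lin-14, were ain-1 and daf-12. The member 881 bp upstream of ain-1, which encodes a GW182-like partner of microRNA-bound Argonaute, scored 27.2, with 17.99 and 8.41 in the replicates. Steroid receptor gene daf-12 had an intronic member of 11.9, with 6.96 and 7.87. Between F13D11.3 and hbl-1, itself a heterochronic gene, lay a member of 32.7, too far from a start to be assigned.

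Of the 6 genes of dosage compensation and the X signal on X, fox-1 and sdc-1 had assigned members. The RNA-binding X-signal gene fox-1 had one of 16.5 at 165 bp downstream of a start and one of 12.1, both in introns and both absent from the replicate 2 list. The zinc-finger gene sdc-1 had one 328 bp upstream of 14.7, with 8.85 and 2.70 in the replicates. None of the 4 forkhead genes of X, fkh-2 among them, had an assigned member.

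Nuclear hormone receptors had 8 assigned genes of 27. The strongest were nhr-3, 862 bp upstream at 29.7, with 9.87 and 12.7 in the replicates, nhr-48 (21.8), nhr-1 (15.999) and nhr-40 (15.7). Homeobox genes had 1 of 26, ceh-31 (13.96), which was in neither replicate list. Neuropeptide genes had 1 of 34, flp-12 (12.02), and the nicotinic receptor subunits none of 7. Of the insulin-like genes, ins-39 was 1 of 2. Counts for such short lists were not tested.

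Muscle genes had 4 of 17. Troponin T gene tnt-2 had a member 552 bp upstream at 24.8, with 12.4 and 10.4 in the replicates. The other troponin genes with an assigned member were mup-2 (15.1) and unc-27 (13.9), while tni-1 and tnt-3 of the same list had none. The zinc-finger gene pat-9 had one in its coding sequence (12.2). Ion channel genes had 4 of 28, namely mec-4 (14.3), a touch channel subunit gene, twk-18 (14.1), slo-2 (13.9) and unc-58 (13.4). Guidance and adhesion genes had 2 of 11, let-2, a type IV collagen gene (30.9, 1928 bp upstream), and lon-2, a glypican gene (12.3).

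Vulval Ras and Notch genes had 4 of 12, namely the Notch co-ligand gene osm-11 (16.04), gap-2 (15.9), the adaptor gene sem-5 (14.4) and egl-17 (12.3). Cilium genes had 2 of 10, the intraflagellar transport gene osm-1 (13.4) and the transition zone gene mksr-1 (12.7). The member assigned to osm-1 had its centre inside the neighbouring gene pat-9, which held 2 members. In each of 5 further lists 1 gene had an assigned member. These were syd-2, a liprin gene (13.2), of 10 synaptic genes, vang-1 (12.6) of 4 Wnt genes and col-181 (23.8) of 30 cuticle collagens. The others were rpl-11.2 (16.9) of 2 ribosomal protein genes and hsp-3, an endoplasmic reticulum chaperone gene (21.8), of 5 chaperone genes. The Wnt gene mom-1 held the intronic member of 52.3 described above, which was too far from a start to be assigned. The member assigned to col-181 had its centre inside the lysine tRNA gene W03G11.t1.

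The 2 strongest members in each remaining feature were lbp-3, a lipid-binding protein gene (26.7), and pks-1 in coding sequence, apt-9 (17.8) and idhb-1, an isocitrate dehydrogenase subunit gene (16.96), in 5′ UTRs, and pdi-2, a protein disulfide isomerase gene (14.7), and vpat-1 (13.7) in 3′ UTRs. Apart from lbp-3, whose replicate scores were 12.5 and 12.6, each of these was higher in replicate 1, as was the median score of listed members.

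Replicate support is a description, because reads of both replicates enter the pooled score. Overlap of at least 1 bp with a peak of the replicate 1 list was found for 398 members (91.1%, 88.0 to 93.4), against 58.1% of all pooled peaks, and with replicate 2 for 309 (70.7%, 66.3 to 74.8), against 40.6%. Both lists held 277 members (63.4%) and neither held 7. Autosomal strong peaks gave 88.5% and 71.3%. The authors' set kept by irreproducible discovery rate (IDR), meant to retain peaks whose ranks repeat, was exactly the 203 highest pooled ranks. Its 55 members (12.6%, against 0.677% of all pooled peaks) therefore follow from the score rule, and nothing is read from that excess.

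Support was thinner among the strongest regions of each replicate. Of the members, 221 (50.6%) overlapped the 2000 strongest of replicate 1, 140 (32.04%) those of replicate 2 and 63 (14.4%, 11.4 to 18.02) those of both. All 55 members of ranks 1 to 203 were listed in replicate 1 and 52 in replicate 2, while in ranks 1001 to 2000 the shares of 194 were 84.5% and 59.8%. Over the 277 members in both lists, the 2 replicate scores had a Spearman rho of 0.111 and a Pearson r of 0.387, given without a test because the same pooled score selected every point.

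A group of 21 members stood among the 300 strongest of both replicates. Those not yet described included chrX:9347663-9347952, 378 bp upstream of oga-1, the O-GlcNAcase gene (34.6, with 25.3 and 10.4), and one 368 bp upstream of puf-9, a Pumilio-family gene (29.1, with 22.2 and 11.7). The epsin gene epn-1 had one 433 bp upstream (27.01, with 13.97 and 15.96). Near ZC506.1, F13C5.2 and spc-1 the members lay 214, 452 and 783 bp upstream, at 29.4, 25.9 and 24.6. The last 2 of the 21, near F19H6.5 (27.8) and ZC53.1 (26.7), were 1653 and 3765 bp from those starts.

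**Figure D5:**
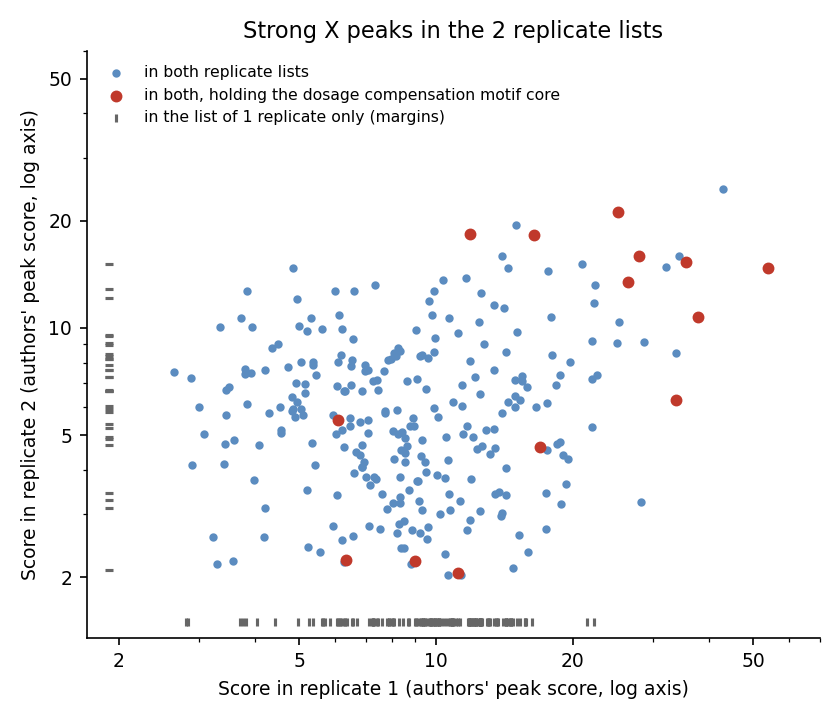
Scores in replicate 1 and replicate 2 (authors' peak scores, log axes) of the 277 strong X peaks in both lists, with members holding the dosage compensation motif core in red. Ticks on the margins are members in the list of 1 replicate only, and the 14 red points range from 6.09 to 53.8 in replicate 1.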

How the data were processed

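Peak lists of 2 ChIP-seq replicates and of both pooled were the data. Per the deposited text files, replicate and pooled lists came from alignments with a control file. Aligner, caller and IDR threshold: not given in the sources used here. The authors deposited for every region a score on an unstated scale, which here served to order regions inside one list and to describe members. Scores of the 2 replicates are set side by side as description only, since no common scale is stated. A deposited −log10 of the q-value was not used to choose peaks. Depth is unknown, because the lists hold no read numbers.

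Coordinates are ce11, 1-based. Ensembl release 115 gene models and the RefSeq genome (WBcel235, the same assembly) gave features, a centre in overlapping models counting as UTR or coding before intron. Starts are those of protein-coding transcripts. Noncoding neighbours lay within 200 bp of the centre, and motif windows spanned the centre and 50 bases on either side, with flanks 500 bp away. Fisher's exact tests (two-sided) and exact McNemar tests used SciPy 1.17.1, the logistic models statsmodels 0.14.6, with Benjamini-Hochberg adjustment within each family and a threshold of 0.05. Tests were checked on simulated data.

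Members, gene lists, motifs and tests were chosen with earlier results of these data known. Genes were named by rule: those of the 15 strongest members, the 2 strongest per feature and noncoding class, members among the 300 strongest of both replicates, up to 8 genes with several members, up to 4 genes per list, those at the rank limit and those of the 3 densest windows. The genes near members with the dosage compensation core, xol-1 among them, were named after their values were seen, and so was hbl-1, whose member had no such core. Sequences were printed for the strongest members and for the words more frequent at centres. Alternatives covered the rank limit, the peak set, each replicate alone, neighbouring peaks, distances, windows and the pooled list of build ce10, whose 3 parts of X used the ce11 length. Tests of the core anywhere in the peak, of distant starts, per noncoding gene and of interactions were added after seeing the data.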

Additional observations from a re-analysis of the deposited data

How the results depend on the processing

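Differences below are percentage points, members minus the comparison set, and counts are tested items past the threshold. Leaving out replicate 1 or 2 means using the list of the other replicate alone. The IDR set is the 203 highest pooled ranks, so here it is a smaller rank limit and no separate set of peaks. Of the recomputed main values, 13 lost significance, 22 counts or shares moved beyond 1.5 times or their interval and 1 reversed, and 135 did none of these, though some of their counts changed. Of the values for other single features, classes and motifs, 21 lost significance, 4 gained it, 4 reversed and 43 did none of these. For features against autosomal strong peaks (1 passed), 2 passed with the 1000 or the 4000 strongest peaks and 0 in the IDR set, and leaving out a replicate gave 1 to 2. For motifs against autosomal strong peaks (1 passed), 2 passed with the 4000 strongest peaks or the wider window, and leaving out a replicate gave 1 to 2. For motifs against flanks (3 passed), 1 passed in the IDR set and 5 with the wider window, and leaving out a replicate gave 1 to 3. For noncoding classes, 1 and 0 passed against autosomal strong peaks (4 in the main analysis) with the 1000 strongest peaks and in the IDR set, and against weaker X peaks (3) 1 passed in the IDR set and 1 with weaker peaks down to rank 8000.

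In the IDR set, with 55 X and 148 autosomal peaks, significance was lost for the intergenic share against autosomes (12.5 points), the promoter share against weaker X peaks (3.18), tRNA neighbours (6.60 against autosomes, 5.53 against weaker X peaks), the dosage compensation core against the flank (9.09) and starts beyond 2000 bp (8.66 against autosomes, -1.46 against weaker X peaks). The tRNA difference was 2.80 with weaker peaks down to rank 8000, and the core 2.47 with the 1000 strongest peaks. Leaving out 1 replicate gave 5.84 to 7.36 for the intergenic share, -0.432 to 8.47 for the promoter share, 0.694 to 1.96 for the core against the flank, and 3.55 to 5.94 and -6.71 to -2.52 for distant starts against autosomes and weaker X peaks. Directions also turned without replicate 1 for pseudogenes against weaker X peaks (0.257, and -1.48 without replicate 2), the forkhead core against the flank (-0.231, and 3.42 without replicate 2) and against autosomes (-0.104, with 2.16 without replicate 2 and -3.49 in the IDR set). The cause was not tested. X held 24.3% of the 1000 strongest peaks and 27.1% of the IDR set. When at least 0.5 of a member had to overlap, 86.3% were in replicate 1, 63.6% in replicate 2 and 52.6% in both, and with the 1000 strongest of each replicate the shares were 37.3%, 23.6% and 8.92%. No paired analysis was possible because the series has 1 group. The lists hold no read numbers, so depth cannot be weighed.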
